A study of Mus musculus with 2 samples.

Results

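Molecular chaperones of the heat shock protein and DnaJ families were examined in thymic epithelial cells of fetal mice. The members are the 72 genes of 25791 listed whose symbols belong to the HSP90, HSP70 and HSP110, small heat shock, HSP60 and HSP10, or DnaJ A, B and C series, 27 heat shock protein genes and 45 DnaJ genes. They were chosen by symbol and not by level. Cells of the fetal thymus at 15 days post coitum had been sorted for the epithelial surface protein EpCAM and against CD45, a leukocyte protein, and PDGFRa, a mesenchymal receptor. One group, titled B6J, came from C57BL/6 mice. The other, titled humanCD3eTg for a transgene with the human CD3e gene, came from mice of mixed C57BL/6J x CBA/J background. Each group had 1 library, so transgene, background and library cannot be told apart, and whether animals were pooled is not given in the sources used here.

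The study set epithelium that developed with thymocytes against epithelium that developed without them. The labels give thymocytes as absent in B6J and present in humanCD3eTg, which is the reverse of what is generally known of mice with many copies of this transgene, and 12 of 12 thymocyte markers with a usable level were lower in the library titled humanCD3eTg. Directions below therefore refer to the titles. Without replicates none of the differences below has a test or an error between mice. Values are FPKM, fragments scaled to the length of the transcript and to the total of mapped fragments, which allow levels of different genes to be set side by side. An estimated 19900000 fragments lay behind B6J and 15800000 behind humanCD3eTg. For 1 kb of transcript, 10 FPKM in B6J then corresponded to some 199 fragments (172 to 229, exact Poisson limits at 95%) and in humanCD3eTg to 158 (135 to 185). These limits cover counting error only. Ratios are log2 ratios of humanCD3eTg over B6J on FPKM + 1, which understates differences of low genes, and those in parentheses below are of this kind. They are given where the mean of both libraries reached 1 FPKM, which held for 61 of the 72 members and 13493 of all genes.

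All 10 epithelial markers were detected in both libraries, at 43.4 FPKM or more, but they differed between them: 7 were lower in humanCD3eTg and 3 higher, with a median of -0.22. The epithelial surface gene Epcam stood at 174 and 231 FPKM, in B6J and humanCD3eTg in this order as throughout, the thymic epithelial transcription factor gene Foxn1 at 91.1 and 43.7 FPKM, and Psmb11, the thymoproteasome subunit of cortical epithelium, at 65.6 and 51.8 FPKM. Krt5, a keratin of basal and medullary epithelium, differed most, at 280.2 and 955 FPKM (1.77), and the chemokine gene Ccl25 and the protease gene Prss16, both of cortical epithelium, stood at 977 and 632 FPKM (-0.63) and 1409 and 992 FPKM (-0.51). The part of these epithelial differences in the chaperone levels was not tested. Markers of other cells differed as well. Summed FPKM of 17 thymocyte genes was 200.3 FPKM in B6J and 14.3 FPKM in humanCD3eTg and Cd3g, Cd3d, Rag2 and Cd7 were listed at 0 in the latter. For 14 pan-haematopoietic genes the sum was 226 FPKM in B6J and 78.5 FPKM in humanCD3eTg, and for 12 endothelial genes 67.8 FPKM in B6J and 19.9 FPKM in humanCD3eTg. By contrast 13 genes of pigment and neural crest cells summed to 13.6 FPKM in B6J and 178 FPKM in humanCD3eTg, with Mlana listed at 0 in B6J. In such bulk libraries fewer cells of a type and less RNA per cell cannot be told apart.

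Heat shock proteins bind unfolded or partly folded proteins and use ATP, in the HSP70, HSP90 and HSP60 families, to fold, hold or pass them on. DnaJ proteins carry the J domain, which stimulates the ATPase of HSP70 and brings it its clients, so that each HSP70 works with its own set of DnaJ partners. HSP110 proteins exchange the nucleotide of HSP70, and small heat shock proteins hold clients without ATP. Separate sets serve the cytosol, the mitochondria and the endoplasmic reticulum. Cytosolic stress genes are switched on by the transcription factor HSF1 through heat shock elements, repeats of GAA and its complement TTC. Chaperone genes of the endoplasmic reticulum answer to the unfolded protein response, in which ATF6 and XBP1 act through the ER stress element.

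Promoters of 8 members are shown as examples of windows that hold a match to an element of the heat shock or the endoplasmic reticulum response. Of these, chosen with their levels known, Hspa1a, Hspa1b, Hsph1, Hspb1 and the mitochondrial Hspe1 hold a heat shock element, and Hspa5, Hsp90b1 and Dnajc3 are the members that hold an ER stress element. They come from RefSeq, build GRCm38.p6, a later build than the one behind the FPKM values, and run 5′ to 3′ from before the start of the gene to shortly after it. Capitals mark matches to a heat shock element in the first 5 and to the ER stress element in the last 3.
Hspa1a (chr17:34972107-34972406, minus strand): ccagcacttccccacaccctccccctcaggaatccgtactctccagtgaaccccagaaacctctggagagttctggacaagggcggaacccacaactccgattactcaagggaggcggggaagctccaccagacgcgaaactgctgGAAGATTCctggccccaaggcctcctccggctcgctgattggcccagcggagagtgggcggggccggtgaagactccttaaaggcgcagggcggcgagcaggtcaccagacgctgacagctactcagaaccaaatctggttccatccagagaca
Hspa1b (chr17:34959189-34959488, minus strand): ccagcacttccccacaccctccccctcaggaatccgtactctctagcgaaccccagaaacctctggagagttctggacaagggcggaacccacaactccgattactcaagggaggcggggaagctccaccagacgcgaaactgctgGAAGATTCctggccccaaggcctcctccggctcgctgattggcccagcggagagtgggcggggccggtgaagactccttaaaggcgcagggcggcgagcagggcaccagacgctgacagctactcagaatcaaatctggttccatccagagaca
Hsph1 (chr5:149636287-149636586, minus strand): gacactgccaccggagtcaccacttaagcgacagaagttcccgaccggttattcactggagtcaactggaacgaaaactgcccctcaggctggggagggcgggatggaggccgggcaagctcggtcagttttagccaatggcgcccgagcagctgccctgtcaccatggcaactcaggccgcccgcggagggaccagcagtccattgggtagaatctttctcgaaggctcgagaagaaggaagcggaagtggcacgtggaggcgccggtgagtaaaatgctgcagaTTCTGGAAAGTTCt
Hspb1 (chr5:135887669-135887968, plus strand): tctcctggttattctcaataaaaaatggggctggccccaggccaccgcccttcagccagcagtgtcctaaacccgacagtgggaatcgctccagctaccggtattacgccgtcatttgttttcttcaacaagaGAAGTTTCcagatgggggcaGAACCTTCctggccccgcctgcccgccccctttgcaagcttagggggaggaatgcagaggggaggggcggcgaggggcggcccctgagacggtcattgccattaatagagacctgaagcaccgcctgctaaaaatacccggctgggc
Hspe1 (chr1:55087898-55088197, plus strand): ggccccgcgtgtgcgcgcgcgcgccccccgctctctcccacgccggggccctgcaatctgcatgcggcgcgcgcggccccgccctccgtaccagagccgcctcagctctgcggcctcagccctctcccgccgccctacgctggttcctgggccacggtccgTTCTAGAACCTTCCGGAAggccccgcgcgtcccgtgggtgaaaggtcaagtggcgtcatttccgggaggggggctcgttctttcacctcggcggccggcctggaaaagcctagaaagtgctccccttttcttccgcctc
Hspa5 (chr2:34771840-34772139, plus strand): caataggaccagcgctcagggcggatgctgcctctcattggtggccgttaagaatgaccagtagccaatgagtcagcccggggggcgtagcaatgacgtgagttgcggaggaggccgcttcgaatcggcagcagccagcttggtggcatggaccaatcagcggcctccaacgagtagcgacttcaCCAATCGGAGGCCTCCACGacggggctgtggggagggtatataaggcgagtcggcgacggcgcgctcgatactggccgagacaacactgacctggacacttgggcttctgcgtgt
Hsp90b1 (chr10:86705395-86705694, minus strand): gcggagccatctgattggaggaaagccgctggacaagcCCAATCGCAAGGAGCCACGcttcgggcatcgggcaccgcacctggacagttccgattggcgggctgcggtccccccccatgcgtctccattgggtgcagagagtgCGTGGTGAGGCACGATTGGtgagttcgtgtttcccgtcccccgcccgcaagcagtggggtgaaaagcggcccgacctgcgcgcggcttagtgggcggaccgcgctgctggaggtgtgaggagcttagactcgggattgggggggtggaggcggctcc
Dnajc3 (chr14:118937682-118937981, plus strand): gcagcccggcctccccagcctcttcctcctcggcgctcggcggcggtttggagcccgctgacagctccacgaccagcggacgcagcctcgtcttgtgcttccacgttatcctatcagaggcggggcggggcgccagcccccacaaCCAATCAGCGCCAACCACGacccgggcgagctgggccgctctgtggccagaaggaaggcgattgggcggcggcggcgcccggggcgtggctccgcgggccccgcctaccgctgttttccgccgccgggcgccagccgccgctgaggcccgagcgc

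The windows of Hspa1a and Hspa1b differed at 4 of 300 bases, and each held 1 match to the heat shock element at the same place, 104 bases before the gene start. Hspb1 held 2 separate matches, 117 and 97 bases before it, and Hspe1 a run of overlapping repeats from 89 bases before it. In Hsph1 the match lay 36 bases after the start. Hspa5 had 1 match to the ER stress element, 65 bases before the start, Dnajc3 1 at 105 bases and Hsp90b1 2, at 212 and 107 bases.

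The heat shock element was searched as GAANNTTC, which reads the same on both strands, and in a longer form of 3 units with a further GAA 2 free bases on, which contains the shorter one. The ER stress element was searched on both strands as CCAAT, 9 free bases and CCACG. Promoter windows were found for 58 of the 72 members, and not for Hspa8, Hsp90aa1, Hsp90ab1 and Hspa9 among others. GAANNTTC was present for 14 of these 58 genes (24.1%), against 9.04% of all 27025 genes in the table. The 14 comprise 6 genes classed as stress-induced in the cytosol (Hspa1a, Hspa1b, Hsph1, Dnaja1, Dnaja4 and Dnajb6) and 4 small heat shock genes (Hspb1, Hspb3, Hspb6 and Hspb8). The others are the mitochondrial Hspd1 and Hspe1, and Dnajc27 and Dnajc5g. The form of 3 units was present for Hsph1, Dnajb6, Hspd1 and Hspe1, 6.9% of members against 0.662% of all genes. Hspd1 and Hspe1 overlap at their starts, and the windows of Hspa1a and Hspa1b are nearly identical. The matches of such pairs are not independent, and these shares count each gene. The ER stress element was present for Hspa5, Hsp90b1 and Dnajc3, 5.17% against 0.137%. A match is a description of letters and not a bound site.

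No member differed by 2-fold between the libraries on FPKM + 1, neither higher nor lower, where 2.1% of all genes used were at least 2-fold higher and 4.47% at least 2-fold lower. At 1.5-fold, 3 members were higher (Hspb1, Dnajb4 and Dnajc30; 5.95% of all genes) and 3 lower (Dnajc4, Hsp90b1 and Hspb9; 10.9% of all genes). Of the 61 members used 31 were lower in humanCD3eTg, 50.8%, against 55.4% of all genes used. The median absolute log2 ratio of the members was 0.25, against 0.24 for all genes, and their median ratio was -0.04, against -0.05. Over all levels the middle of the family thus lay close to that of all genes, while the medians of its classes lay on different sides of 0. At high levels all genes shifted upward while the members did not. Of the 14 members whose mean reached 100 FPKM 8 were lower (57.1%), with a median of -0.05, against 32.4% and a median of 0.10 for all 982 genes at that level. The humanCD3eTg sum was 0.926 times that of B6J for these members and 1.06 times for these genes. The contrast rests on few members. Of the 8 lower ones Hsp90ab1 (-0.04), Hspd1 (-0.05) and Dnajb1 (-0.06) were close to level. Hspa1a and Hspa1b, also among the 8, can share fragments and are not independent.

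**Figure D1:**
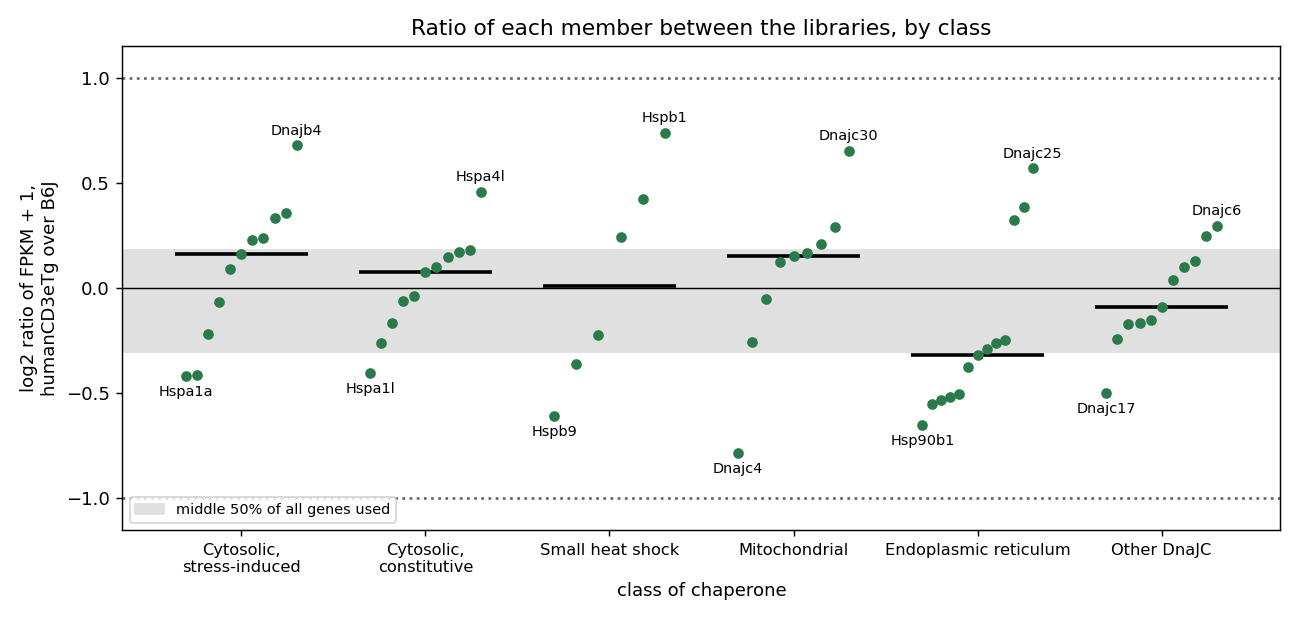
Log2 ratio of FPKM + 1, humanCD3eTg over B6J, for each of the 61 members that reached a mean of 1 FPKM (points), by class; black bars are class medians, the grey band the middle 50% of all genes used (-0.30 to 0.18) and dotted lines 2-fold. Of the 13 endoplasmic reticulum members 10 lie below 0, and no point reaches a dotted line.

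Together the 72 members accounted for 1.39% of all FPKM in B6J and 1.26% in humanCD3eTg. The constitutive cytosolic class was the largest, with summed FPKM of 3771 FPKM in B6J and 3526 FPKM in humanCD3eTg, followed by the stress-induced cytosolic class with 3066 FPKM in B6J and 2758 FPKM in humanCD3eTg. Endoplasmic reticulum members summed to 1054 FPKM in B6J and 753 FPKM in humanCD3eTg, mitochondrial members to 909 FPKM in B6J and 962 FPKM in humanCD3eTg and small heat shock members to 453 FPKM in B6J and 651 FPKM in humanCD3eTg. The humanCD3eTg sum was thus 0.714 times that of B6J in the endoplasmic reticulum class and 1.44 times in the small heat shock class. Elsewhere it lay between 0.9 and 1.06 times. These sums are dominated by a few genes, given next.

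**Figure D2:**
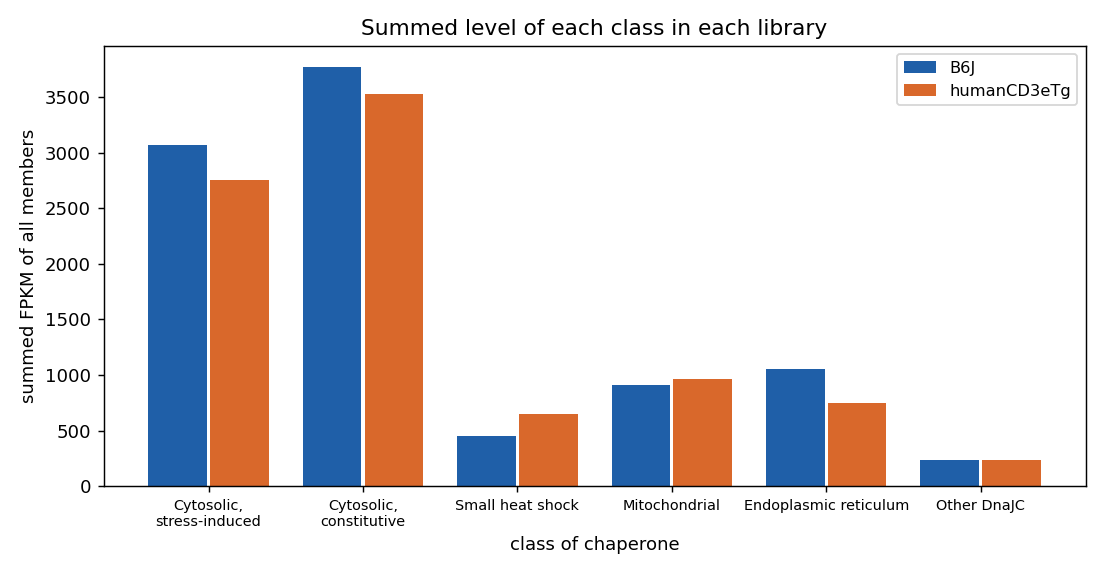
Summed FPKM of all members of each class in B6J (blue) and humanCD3eTg (orange), 1 library each, so there are no error bars. The endoplasmic reticulum bar is lower in humanCD3eTg (1054 against 753) and the small heat shock bar higher (453 against 651).

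Among the members classed as stress-induced in the cytosol the HSP70 genes were lower in humanCD3eTg and most DnaJ genes higher. The class was assigned from known roles, but with earlier results of these data known. Of its DnaJ genes, those noted as induced by heat shock or stress are Dnajb1 (-0.06) and Dnaja4 (0.09), and both were close to level. The higher DnaJ genes are mostly others, whose induction by stress is not shown here. Hspa1a, which encodes the inducible HSP70, stood at 857 FPKM in B6J and 640.4 FPKM in humanCD3eTg (-0.42), and its near-identical copy Hspa1b at 891 and 669 FPKM (-0.41). Hsph1, the HSP110 partner of HSP70, stood at 102 and 87.2 FPKM (-0.22). All 3 were thus lower in the same library, by less than 1.5-fold. Dnajb1, the stress-induced DnaJ partner of HSP70, was close in both libraries at 289 and 276 FPKM (-0.06). Hsp90aa1, the inducible HSP90, stood higher at 705 and 788 FPKM (0.16).

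The remaining DnaJ genes of this class were all higher in humanCD3eTg. Dnajb4, a relative of Dnajb1, stood at 51.4 and 82.7 FPKM (0.68), the highest ratio of the class. Dnaja1, a class A partner of HSP70, stood at 93.8 and 120.4 FPKM (0.36), and Dnajb6, which keeps polyglutamine proteins soluble, at 47.8 and 60.4 FPKM (0.33). Dnajb2, which passes clients to the proteasome, stood at 18.7 and 22.3 FPKM (0.24), Dnajb5 at 2.47 and 3.06 FPKM (0.23) and Dnaja4 at 8.32 and 8.93 FPKM (0.09). In all, 7 of 11 members of the class were higher, with a median of 0.16. Lower were 36.4% of the class, against 55.4% of all genes used and 32.4% of those with a mean of at least 100 FPKM. The 6 genes of the class with GAANNTTC in their promoter windows did not share a direction: Hspa1a, Hspa1b and Hsph1 were lower, and Dnaja1, Dnaja4 and Dnajb6 higher.

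Hspa1a and Hspa1b share 1716 of the 2918 windows of 50 bases in the Hspa1a transcript (58.8%), so fragments can belong to either and their separate values are uncertain. Their sum was 1748 FPKM in B6J and 1309 FPKM in humanCD3eTg, 0.749 times as much. Hspa1l, a neighbouring HSP70 gene known from male germ cells, stood at 62 and 46.6 FPKM (-0.41) and shares 9.57% of its windows with Hspa1a, so part of its level may be fragments of the inducible genes. The 3 genes lie side by side on chromosome 17, within the MHC region, where C57BL/6 and CBA/J mice carry different haplotypes. Sequence differences at this locus and the groups cannot be told apart.

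Among constitutive cytosolic members Hspa8 and Hsp90ab1 were by far the most abundant, and no member of the class differed by 1.5-fold. Hspa8, the constitutive HSP70, stood at 1871 FPKM in B6J and 1669.8 FPKM in humanCD3eTg (-0.16), rank 41 and 56 of all genes. Hsp90ab1, the constitutive HSP90, stood at 1610.0 and 1567 FPKM (-0.04), rank 57 and 63. Of the 16 members of the class 11 had a usable level, 6 of them higher and 5 lower, with a median of 0.08. The exchange factor genes Hspa4 and Hspa4l stood at 48.7 and 51.4 FPKM (0.08) and 13.4 and 18.8 FPKM (0.46), the latter the highest ratio of the class. Dnaja2, the constitutive class A partner, stood at 42.2 and 48 FPKM (0.18), and Dnajc7, which binds both HSP70 and HSP90, at 53.1 and 57 FPKM (0.10).

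Ribosome-associated members differed by less than 1.5-fold. Hspa14, an HSP70 of the ribosome-associated complex, stood at 27 and 30 FPKM (0.15) and its DnaJ partner Dnajc2 at 32.7 and 27.1 FPKM (-0.26), on opposite sides of 0. Of the genes known mainly from germ cells, Hspa2 stood at 7.02 and 6.67 FPKM (-0.06) and Dnajb3 at 1.47 and 1.78 FPKM (0.17). Below the level filter were Hspa12a (0.614 and 1.04 FPKM), Hspa12b, known from endothelium (0.291 and 0.69 FPKM), Dnajb13, of cilia and sperm tails (0.319 and 0.134 FPKM), and Dnajb7 and Dnajb8, at 0.407 and 0.191 FPKM in B6J and listed at 0 in humanCD3eTg.

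Within each library the levels of related chaperones could be set side by side, because FPKM is per length. Fragments shared with similar genes or processed copies are not corrected for, so these ratios are approximate. Summed Hspa1a and Hspa1b made up 0.934 in B6J and 0.784 in humanCD3eTg of the level of Hspa8, so the inducible HSP70 transcripts were nearly as abundant as the constitutive one in B6J. Hsp90aa1 was 0.438 in B6J and 0.503 in humanCD3eTg times Hsp90ab1. The inducible share of HSP70 was therefore lower, and that of HSP90 higher, in humanCD3eTg. Hspa5, the HSP70 of the endoplasmic reticulum, was 0.307 in B6J and 0.242 in humanCD3eTg times Hspa8.

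**Figure D3:**
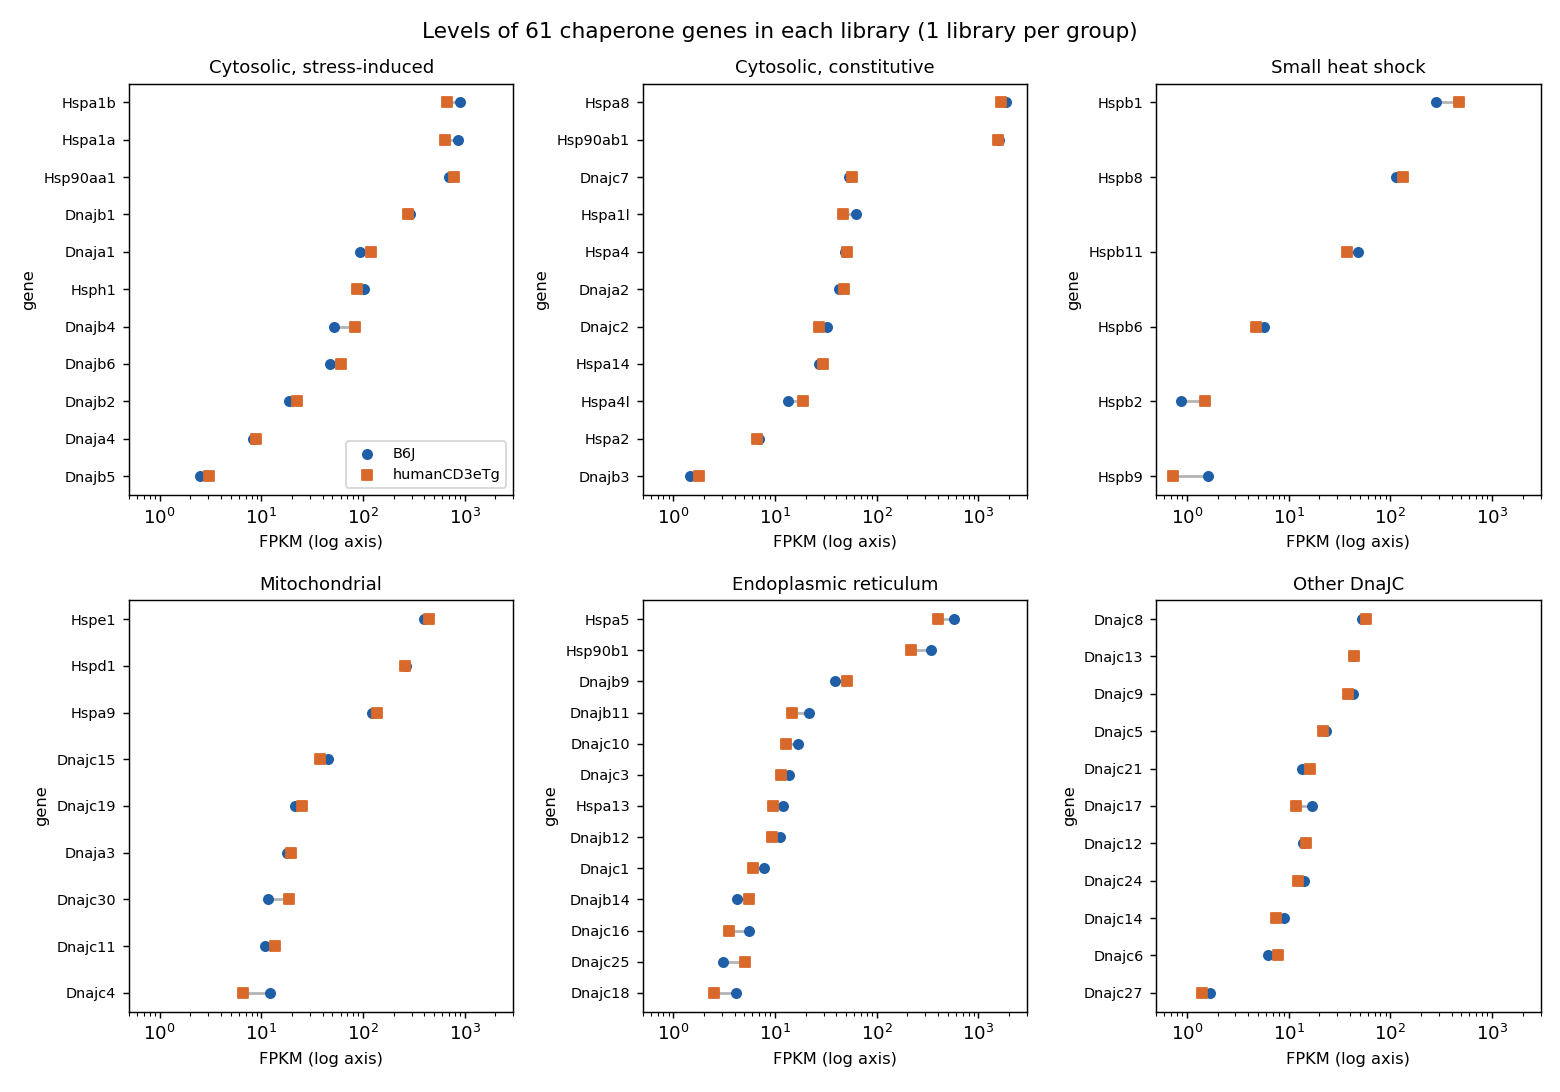
FPKM of the 61 members that reached a mean of 1 FPKM in B6J (blue circles) and humanCD3eTg (orange squares) on a log axis, by class and in order of mean level. The paired points lie close together for most genes; Hspb1 is further right in humanCD3eTg (472 against 283), and Hspa5 and Hsp90b1 further left.

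Among small heat shock members, which are few and mostly low in this tissue, Hspb1 stood apart. Hspb1, which encodes HSP27, stood at 283 and 472 FPKM (0.74), 1.67 times as high in humanCD3eTg and the highest ratio of all members used. Hspb8, HSP22, stood at 113 and 134 FPKM (0.24). Its partner Bag3, which links Hspb8 to HSP70, went the other way at 91.6 and 69.1 FPKM (-0.40). Hspb6, known from muscle, stood at 5.75 and 4.78 FPKM (-0.22). Hspb2, also known from muscle, stood at 0.873 and 1.51 FPKM (0.42), and Hspb9, known from testis, at 1.63 and 0.725 FPKM (-0.61), both near the level filter. Hspb11, also named IFT25, is a subunit of intraflagellar transport in cilia rather than a classical small heat shock protein, and stood at 48.7 and 37.7 FPKM (-0.36). Hspb7 lay below the filter at 0.384 and 0.365 FPKM and Hspb3 was listed at 0 in both libraries.

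Of the 6 small heat shock members used 3 were higher and 3 lower, with a median of 0.01 that turned to -0.01 with a pseudocount of 0.1 or with no filter. The 3 lower were Hspb9, Hspb11 and Hspb6. This median depends on counting Hspb11, which is not a classical member: without it the middle value is that of Hspb8 (0.24). Muscle genes, measured because several of this class are known from muscle, summed to 73.1 FPKM in B6J and 85.4 FPKM in humanCD3eTg over 17 genes, 4 of 10 with a usable level being higher and 6 lower. The smooth muscle gene Tagln stood at 7.65 and 32.3 FPKM and the skeletal muscle gene Mylpf at 8.79 and 2.4 FPKM. Genes of ciliated cells summed to 29.2 FPKM in B6J and 25.1 FPKM in humanCD3eTg over 7 genes. Like Hspb1, the pigment and neural crest markers were higher (11 of 11 used). Their part in these levels was not tested.

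Of the 9 mitochondrial members used 6 were higher, with a median of 0.15. Lower were 33.3% of them, against 55.4% of all genes used and 32.4% of those with a mean of at least 100 FPKM. In this class 2 DnaJ genes differed by at least 1.5-fold while the genes of the folding machinery were nearly level. Hspd1, the HSP60 chaperonin that encloses clients in the matrix, stood at 267 FPKM in B6J and 258 FPKM in humanCD3eTg (-0.05), and Hspe1, the HSP10 that caps it, at 401 and 446 FPKM (0.15). Hspa9, the mitochondrial HSP70, stood at 121 and 136 FPKM (0.16) and its DnaJ partner Dnaja3 at 18 and 19.7 FPKM (0.12). The ratios of these 4 genes of the folding machinery lay between -0.05 and 0.16. Hspe1 was 1.5 in B6J and 1.73 in humanCD3eTg times Hspd1, and the 2 genes overlap at their starts.

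The DnaJ genes of mitochondrial import and assembly varied more. Dnajc15 and Dnajc19, of the import motor, stood at 45.3 and 37.8 FPKM (-0.26) and 21.4 and 24.8 FPKM (0.21), on opposite sides of 0. Dnajc11, of the cristae complex, stood at 10.9 and 13.6 FPKM (0.29). Dnajc4 had the lowest ratio of all members used, at 12.2 and 6.64 FPKM (-0.78), and Dnajc30 the highest of the class, at 11.6 and 18.9 FPKM (0.65). Dnajc30 overlaps Bud23, whose fragments cannot be told apart from its own without strand. Dnajc28 lay below the filter at 0.27 and 0.46 FPKM.

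Among 14 other genes of mitochondrial protein quality control 10 were lower and 4 higher, none by 1.5-fold, with a median of -0.10. Of all genes used 55.4% were lower. Trap1, the mitochondrial HSP90, stood at 40.1 and 35.7 FPKM (-0.16), and Grpel1, the exchange factor of Hspa9, at 19 and 18.1 FPKM (-0.07). The protease gene Lonp1 had the lowest ratio of the list, at 39 and 28.1 FPKM (-0.46), and Hscb, a DnaJ protein of iron-sulphur cluster assembly, the highest, at 14 and 19.2 FPKM (0.43).

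Endoplasmic reticulum members were the class with the most uniform direction: 10 of 13 were lower in humanCD3eTg, with a median of -0.32, beside 55.4% of all genes used. Hspa5, which encodes BiP, the central HSP70 of this compartment, stood at 574 FPKM in B6J and 404 FPKM in humanCD3eTg (-0.50). Hsp90b1, which encodes GRP94, the HSP90 of this compartment and a folding factor for integrins and Toll-like receptors, stood at 341 and 217 FPKM (-0.65), 1.57 times as high in B6J. Both are abundant, and among the 982 genes whose mean reached 100 FPKM 32.4% were lower in humanCD3eTg. Their summed level was 0.679 times that of B6J. The microsomal HSP70 gene Hspa13 stood at 11.9 and 9.52 FPKM (-0.29).

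The DnaJ partners of BiP were lower with it, with 1 exception, Dnajb9, which was the most abundant of them. The summed level of the 4 soluble partners, Dnajb9, Dnajb11, Dnajc3 and Dnajc10, was therefore nearly the same, at 91.6 FPKM in B6J and 90.6 FPKM in humanCD3eTg (0.989 times). Dnajb11 (ERdj3), which binds unfolded clients, stood at 21.6 and 14.8 FPKM (-0.52), and Dnajc10 (ERdj5), which also reduces disulphide bonds, at 17 and 12.9 FPKM (-0.38). Dnajc3 (P58IPK) stood at 13.8 and 11.5 FPKM (-0.24) and the membrane protein gene Dnajc1 (ERdj1) at 7.88 and 6.13 FPKM (-0.32). Dnajb9 (ERdj4), which is known as a sensitive target of the unfolded protein response, instead stood higher in humanCD3eTg at 39.1 and 51.5 FPKM (0.39). All 3 members with an ER stress element in the promoter windows shown above, Hspa5, Hsp90b1 and Dnajc3, were among the lower genes. Most members without a listed match were lower too: Dnajb11, Dnajc10, Dnajc1, Hspa13, Dnajb12, Dnajc16 and Dnajc18, while Dnajb9, Dnajb14 and Dnajc25 were higher. The direction of the matched genes was thus that of most of the class. A member without a listed match may also be one for which no window was found.

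DnaJ genes of the membrane of the endoplasmic reticulum were low in level and mixed. Dnajb12 stood at 11.3 and 9.27 FPKM (-0.26), Dnajc16 at 5.52 and 3.5 FPKM (-0.53) and Dnajc18 at 4.14 and 2.52 FPKM (-0.55). Dnajb14, a close relative of Dnajb12, stood at 4.21 and 5.51 FPKM (0.32), and Dnajc25 at 3.11 and 5.09 FPKM (0.57), both higher in humanCD3eTg. These 5 genes thus went both ways, 3 lower and 2 higher. With Dnajc1, which also encodes a membrane protein, 4 of 6 were lower and 2 higher. Such groups within the class were drawn with earlier results of these data known.

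Other genes of endoplasmic reticulum folding and the unfolded protein response, which the family does not include, lay on the same side. Of 25 genes 21 were lower in humanCD3eTg, 9 of them by at least 1.5-fold, with a median of -0.44. Of all genes used 55.4% were lower, and 10.9% by at least 1.5-fold. Hyou1, the HSP110 of this compartment, stood at 54.5 and 34.1 FPKM (-0.66), and Calr, the lectin chaperone calreticulin, at 476 and 299 FPKM (-0.67). The disulphide isomerase genes Pdia6 and Pdia4 stood at 133 and 74.2 FPKM (-0.83) and 87 and 52.4 FPKM (-0.72), and Sdf2l1, a cofactor of BiP and Dnajb11, at 37.6 and 21.4 FPKM (-0.78). The transcription factor gene Xbp1 stood at 114 and 82.9 FPKM (-0.45), the sensor kinase gene Eif2ak3 (PERK) at 9.05 and 5.11 FPKM (-0.72) and Edem1, of degradation from this compartment, at 14.4 and 8.1 FPKM (-0.76). The 4 higher genes were Ddit3, Selk, Atf4 and Ern1. Ddit3, which encodes CHOP, a factor of the PERK branch, stood at 18.4 and 32.1 FPKM (0.77) and was the 1 gene of the list at least 1.5-fold higher. Thymocyte, pan-haematopoietic and endothelial markers moved in the same direction as these genes (12 of 12, 13 of 13 and 11 of 11 used lower). Of the 10 epithelial markers 7 were lower too, among them Prss16 (-0.51) and Ccl25 (-0.63), and 3 higher. The part of any of these markers' cells in the levels was not tested.

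**Figure D4:**
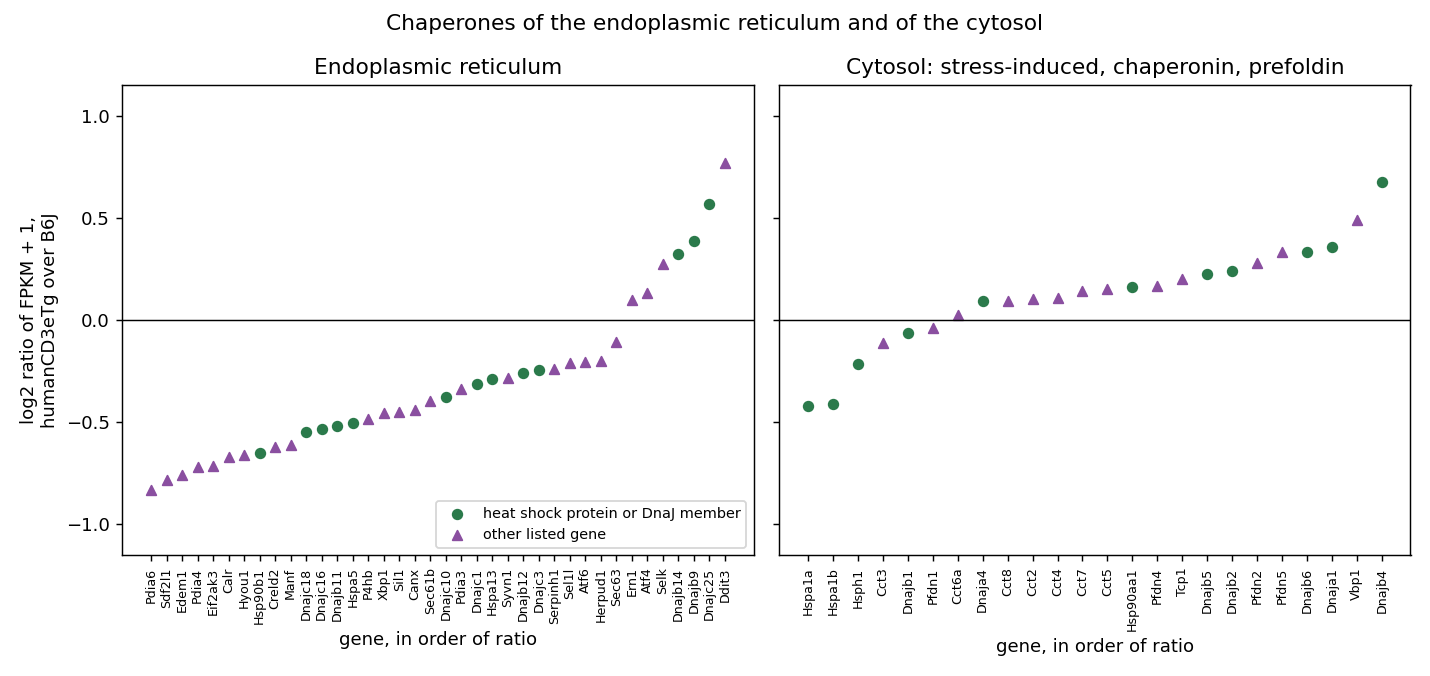
Log2 ratio of FPKM + 1, humanCD3eTg over B6J, for endoplasmic reticulum members with 25 other folding and unfolded protein response genes (left) and for stress-induced cytosolic members with 13 chaperonin and prefoldin genes (right), in order of ratio; circles are members and triangles the other genes. Of the 25 other genes on the left 21 lie below 0 and of the 13 on the right 11 lie above it. Of all genes used 55.4% were lower, and of the 982 with a mean of at least 100 FPKM 32.4%.

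In the cytosol the genes around the heat shock proteins did not share a lower direction. Hsf1, the main heat shock transcription factor gene, stood at 22.1 and 20.5 FPKM (-0.10), Hsf2 at 8.86 and 11.5 FPKM (0.35) and Hsbp1, which encodes a binding partner of HSF1, at 133 and 139.8 FPKM (0.07). Of 27 co-chaperones of HSP70 and HSP90 13 were higher and 14 lower, with a median of -0.02. The lower share of 51.9% was near the 55.4% of all genes used. Stip1, which hands clients from HSP70 to HSP90, stood at 106 and 105 FPKM (-0.02), Ahsa1, the activator of the HSP90 ATPase, at 95.6 and 95.9 FPKM (0.00), Fkbp4, of steroid receptor complexes, at 179 and 189 FPKM (0.08) and the exchange factor gene Hspbp1 at 31.2 and 28.3 FPKM (-0.14). Of 13 genes of the cytosolic chaperonin and of prefoldin, which fold actin and tubulin, 11 were higher, none by 1.5-fold, with a median of 0.14. Most of these genes are abundant. Of the 982 genes whose mean reached 100 FPKM only 32.4% were lower, with a median of 0.10, against 55.4% lower of all genes used. The higher direction of this list is thus near that of abundant genes in general. The highest of these was Vbp1, a prefoldin subunit gene, at 36.5 and 51.6 FPKM (0.49).

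Immediate early genes, which like the inducible heat shock genes respond quickly to stress, were high in both libraries. Their summed level over 22 genes was 4046 FPKM in B6J and 4062 FPKM in humanCD3eTg. Of these genes 14 were higher in humanCD3eTg and 8 lower, with a median of 0.04. Lower were thus 36.4%, against 55.4% of all genes used and 32.4% of those with a mean of at least 100 FPKM. As a list they did not share the lower direction of Hspa1a and Hspa1b, but their share was near that of abundant genes in general. Btg2 and Egr3 stood at 109.8 and 182 FPKM (0.72) and 12 and 20.1 FPKM (0.69), Nr4a1 at 139.8 and 219.9 FPKM (0.65) and Socs3, the 1 gene at least 2-fold lower, at 165 and 56.7 FPKM (-1.52).

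The other DnaJC genes, whose J domains serve vesicles, the nucleus and particular clients, went in both directions. Of 14 members 11 were used, 5 higher and 6 lower, with a median of -0.09 and no difference of 1.5-fold. Dnajc8, of the spliceosome, stood at 52.8 and 57.8 FPKM (0.13), Dnajc9, a chaperone of histones, at 42.9 and 38.2 FPKM (-0.17) and Dnajc13, of endosomes, at 42.8 and 44 FPKM (0.04). Dnajc5, of secretory vesicles, stood at 23.3 and 21.8 FPKM (-0.09), and Dnajc6, auxilin, at 6.3 and 7.95 FPKM (0.29). The lowest ratio was that of the nuclear Dnajc17, at 17 and 11.7 FPKM (-0.50), which overlaps Zfyve19. Dnajc21, of ribosome assembly, stood at 13.6 and 16.3 FPKM (0.25).

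Dnajc12, a chaperone of aromatic amino acid hydroxylases, stood at 13.8 and 14.9 FPKM (0.10), Dnajc24, of diphthamide synthesis, at 14.1 and 12.4 FPKM (-0.17), the membrane protein gene Dnajc14 at 9.04 and 7.48 FPKM (-0.24) and Dnajc27, a RAB-like gene, at 1.68 and 1.41 FPKM (-0.15). Dnajc22 was at 0.0793 FPKM in B6J and listed at 0 in humanCD3eTg. The cysteine string protein genes Dnajc5b and Dnajc5g, known from testis, were listed at 0 in both libraries, where a value of 0 can also be a failed estimate.

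Of the 72 members 32 overlap another gene in RefSeq, among them Hspa5 with Rabepk, Dnajb4 with Fubp1, Hspb2 with Cryab and Dnajc1 with Mllt10. Use of strand is not given in the sources used here, so fragments of such partners cannot be told apart. Processed copies of abundant chaperone genes such as Hspa8 and Hspd1 may also share fragments with them.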

How the data were processed

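RNA of 1 library per group was sequenced after extraction with TRIzol and an Illumina TruSeq preparation, per the labels' protocols. The authors deposited 1 FPKM value for each of 25791 gene symbols per library. Per the submitters' processing notes, which give no roles, Bowtie2 2.1.0, TopHat2 2.0.8 and Cufflinks 2.1.1 were used with mouse build mm9. For annotation, filters and strand, settings are not stated by these sources. Depth was estimated from the steps of low FPKM values, using GENCODE M21 lengths less 210 bases and a step searched between 0.04 and 0.09. Of 549 and 428 low genes 57.7% and 55.6% came within 0.1 of a whole fragment, where an arbitrary step would give 20%. The depth is therefore approximate, and count tests were not used.

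Log2 ratios on FPKM + 1 were computed with Python 3.11.15, numpy 2.4.6 and pandas 2.3.3, and the computation was tested on simulated data. Genes whose mean reached 1 FPKM were used, and a value of at most 0.001 is called listed at 0. A difference of at least 2-fold or 1.5-fold on this scale was counted, and lists are described by counts and medians beside all genes. Any member could be named, and from each other list up to 6 genes with the largest absolute ratios (4 immediate early genes) and some whatever their ratios. Members, classes and lists were chosen with earlier results of these data known. Alternatives changed the pseudocount (0.1 or 5), the filter (none, or a mean of 5 FPKM), the scaling (ratios centred on their median, or quantile normalization) and the fold limit, or left out genes listed at 0 in 1 library.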

Additional observations from a re-analysis of the deposited data

How the results depend on the processing

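Each class median stayed within 0.1 of the value given above under every alternative to the scale, the filter and the normalization that was run, and so did the median of the 61 members. The endoplasmic reticulum median ranged from -0.36 with a pseudocount of 0.1 to -0.22 with a pseudocount of 5, and 10 of 13 members were lower under each of these settings except a mean of at least 5 FPKM, where 8 of 9 were. The medians of the small heat shock class and of all members, which lie close to 0, changed sign under some settings. The count of members at least 2-fold lower was 1 with a pseudocount of 0.1 (Hspb9, chosen after its values were seen) and 3 at a limit of 1.5-fold, where 3 members were higher. Among single members, 12 of 61 ratios moved by more than 0.1 with a pseudocount of 5, 5 with 0.1 and 9 with quantile normalization. Only Hsp90ab1 changed direction with median centring and only Hspa2 with quantile normalization. No paired analysis was possible because each group has 1 library. Depth limits members near 1 FPKM most, where 1 kb of transcript rests on about 19.9 fragments in B6J and 15.8 in humanCD3eTg.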

Other observations

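Cryab, which encodes alpha B-crystallin, the small heat shock protein of lens, muscle and glia that bears no Hsp symbol, stood at 3.36 FPKM in B6J and 14.9 FPKM in humanCD3eTg, a log2 ratio of 1.87 on FPKM + 1. No member reached this ratio, and Hspb1 was the nearest of its class at 0.74. Hspb2, which overlaps Cryab, stood at 0.873 and 1.51 FPKM. The related Cryaa and Odf1 were listed at 0 in both libraries. The summed level of 13 pigment and neural crest genes was 13.6 FPKM in B6J and 178 FPKM in humanCD3eTg, and their part in the level of Cryab was not tested.

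Fkbp5, an HSP90 co-chaperone of steroid receptors and a known glucocorticoid target, stood at 42.8 FPKM in B6J and 12.4 FPKM in humanCD3eTg (-1.71). It was the 1 gene of 27 co-chaperones with a difference of 2-fold, and its relative Fkbp4 was level between the libraries. The next ratios of that list were those of Bag5, an exchange factor gene of HSP70, at 10.9 and 16.4 FPKM (0.55), and Ahsa2, a relative of Ahsa1, at 9.04 and 13.4 FPKM (0.52).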
